A study of Glycine max with 5 samples.

Results

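Seed maturation proteins and late embryogenesis abundant (LEA) proteins are made in seeds as they dry, and 6 soybean genes of this kind were examined here in root tips of seedlings. The genes were PM16, PM29, PM30, PGMPM19, LEA5 and SLE2, taken by symbol from the platform's table of probe sets that name a single gene. They had 9 probe sets among the 8677 single-gene probe sets of the array, and stood for 6 of 6031 genes. They had been picked because their signals in root tips and in the other tissue were already known to differ, so that difference is only described below. Where a threshold of the fit over all probe sets is mentioned for them, it describes the size of a value and supports nothing.

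The soybean (Glycine max) plants were of the genotype Bragg and were 10 days old, raised at 28 °C in an unfertilised mix of soil, perlite and sand under natural long days. No genotype or treatment other than tissue separated the groups. One group was 3 arrays of root tips of 0.5 mm, labelled as root apical meristem, and the other was 2 arrays of non-meristematic tissue from seedlings of the same age. The latter is called leaf in one label, while the protocol names the rest of the plant, and the free text of each of the 5 samples mentions embryo stages, at odds with its other labels. The labels do not say how many plants made up a sample or whether the root cap was removed, and p-values measure only the spread between these samples.

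LEA proteins are mostly small, very hydrophilic proteins that take little fixed structure in water. They accumulate late in seed development, together with tolerance of drying, and are thought to protect membranes and other proteins while cells lose water. Many of their genes also respond to abscisic acid or water deficit in vegetative tissue, and their transcripts normally decline after germination.

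Values are MAS5 signals, a single brightness per probe set on a linear scale. The background of an array was its 25th percentile of signal, 22.5, 20.7 and 17.9 on root meristem arrays 1, 2 and 3, and 37 and 26.3 on non-meristematic arrays 1 and 2. A signal below background bounds a level only from above. Where all arrays of a group lay below background, the ratio is a lower bound, written "at least", for which each dim array took the higher of its background and its signal. Bounds and fitted ratios compare the groups' means of log2 signal, not their nearest single values. Where only some did, the fitted ratio is given with the number of arrays above background. RNA came from whole tissue pieces, in which more cells of a type and more RNA per cell cannot be told apart. The tissues mostly carried the markers of their labels. PIN2A, a root auxin efflux carrier gene, had 1740, 2401 and 1984 on the root arrays against 26.1 and 25.2 in non-meristematic tissue. Of 12 leaf and photosynthesis genes, 11 were lower in root meristem (limma, log2 difference of at least 1) and 1, PSAD, did not pass. PSAD went the other way, with 4662, 4687 and 4996 on the root arrays against 2833 and 3178. Its log2 difference was 0.67 ± 0.13 (SE), under the minimum size.

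All 9 member probe sets had a higher signal on every root meristem array than on either non-meristematic array, a pattern that held for 34% of the 30941 probe sets tested. In the fit over all probe sets, 8 of the 9 probe sets and all 6 genes, each by its brightest tested probe set, met the threshold of an adjusted p below 0.05 with a log2 difference of at least 1, against 14.4% of all probe sets and 18.6% of 5652 named genes by their brightest tested probe set. These shares are given as background only, since the genes were picked on this contrast. With 1 root meristem array left out, the brightest tested probe set of PM30 became its dim one, described below. That of PM16 also changed to its other probe set. In these fits 4 of the 6 genes met the threshold without array 1, 4 without array 2 and 5 without array 3. The fitted median log2 difference over the 6 genes was 7.33, or 4.72 with the 5 genes that lay below background on both non-meristematic arrays held at their bound, beside 0.07 over all probe sets tested. Over all probe sets, 44.3% of those that passed were higher, and the share was 54.8% after quantile normalization and 62.1% after median centring.

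**Figure D1:**
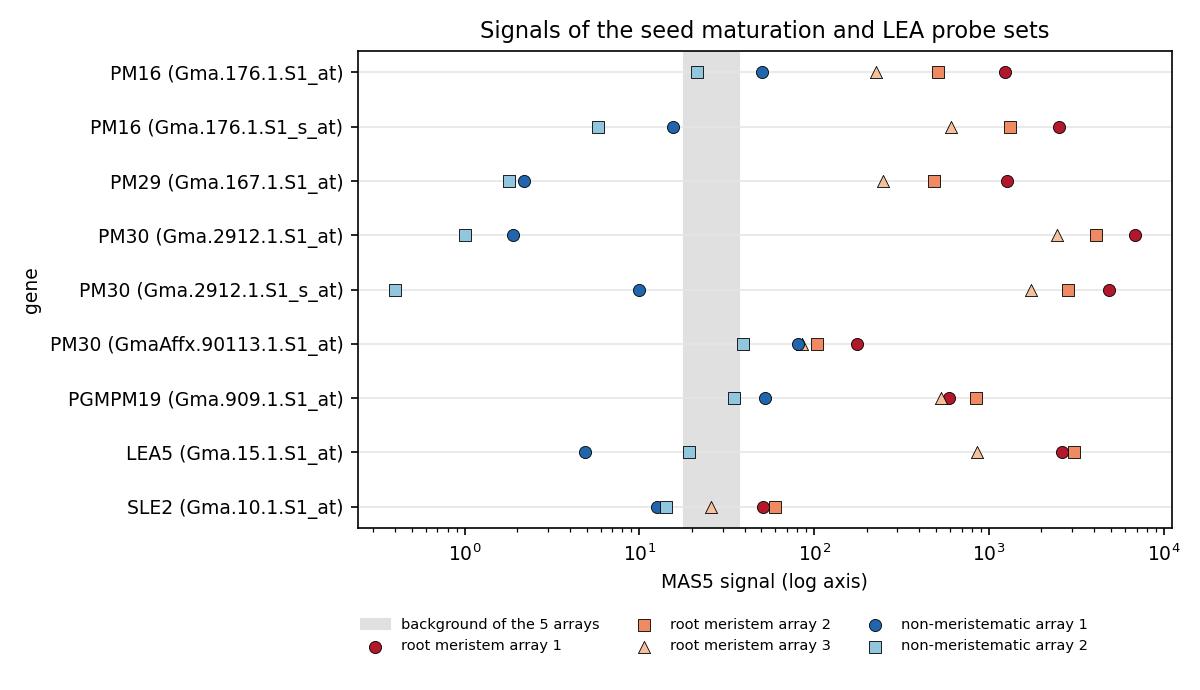
MAS5 signal (log axis) of the 9 member probe sets on each of the 5 arrays, 1 row per probe set and 1 point per array, with the range of array backgrounds (17.9 to 37) shaded. The root meristem points lie to the right of the non-meristematic points in every row, and root meristem array 3 is the lowest of the 3 root arrays in every row.

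PM30 encodes a LEA protein of the group known for repeated motifs that can form helices. Its probe set with a plain suffix, and so not marked as able to cross-hybridize, gave 6843, 4075 and 2453 on root meristem arrays 1, 2 and 3, and 1.9 and 1.0 on non-meristematic arrays 1 and 2. Both non-meristematic signals were far below background, and root meristem was at least 131-fold higher by mean log2 signal. The means on the linear scale were 4457 ± 2220 (SD, n = 3) against 1.45 ± 0.64 (SD, n = 2). A probe set of the same accession that is so marked gave 4897, 2846 and 1737 against 9.9 and 0.4, at least 92.7-fold. The ratio of array 1 to array 3 was 2.79 on one and 2.82 on the other.

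A further PM30 probe set, from the GmaAffx series and designed on a different accession, behaved otherwise. It had 176, 104 and 84.9 on the root arrays against 80.9 and 39.3 in non-meristematic tissue, above background on all 5 arrays. Its lowest root value only just exceeded the highest non-meristematic value, and its log2 difference was 1.04 ± 0.45 (SE). This was the single member probe set below the threshold. It met the threshold after quantile normalization (log2 1.43), after median centring (1.39) and without non-meristematic array 1 (1.56). The accessions are both listed under PM30, and whether they detect the same transcript was not tested.

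PM16, described as a LEA-type seed protein, was measured by 2 probe sets of the same accession. The marked probe set gave 2512, 1321 and 605 on the root arrays against 15.5 and 5.8 in non-meristematic tissue, at least 40.4-fold higher. The unmarked probe set gave 1234, 509 and 226 against 50.6 and 21.3, a fitted 15.9-fold difference (log2 3.99 ± 0.72 SE), with 1 of the 2 non-meristematic arrays, array 1, above background. On both probe sets array 1 was the highest root array and array 3 the lowest, by 4.16-fold and 5.45-fold.

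PM29, known here by its name as a seed maturation protein, had signals of 1275, 486 and 248 on the root arrays against 2.2 and 1.8 in non-meristematic tissue. By mean log2 signal, root meristem was at least 17.2-fold higher, although the root arrays themselves spanned 5.15-fold. The coefficient of variation of the root arrays was 80.3%, the largest among the probe sets that represent the 6 genes.

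LEA5, named as a LEA protein, had 2637, 3069 and 852 on the root arrays against 4.9 and 19.3 in non-meristematic tissue, at least 61.0-fold higher. Arrays 1 and 2 were close to each other, and array 3 was 3.60-fold below array 2. Here the highest root value was on array 2, whereas it was on array 1 for PM16, PM29 and PM30.

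PGMPM19, listed with the synonym GMMT4, had the tightest root values, 592, 844 and 531 on arrays 1, 2 and 3, with a coefficient of variation of 25.3%. Its signals on the non-meristematic arrays, 52.5 and 34.9, were both above background, as were those of the dim PM30 probe set. The difference was 15.01-fold (log2 3.91 ± 0.31 SE). Array 1 was only 1.11-fold above array 3.

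SLE2, also called Em, LEA1 and GmPM11, belongs to the small hydrophilic Em type of LEA protein. Its signals were 50.9, 59.5 and 25.7 on the root arrays against 12.6 and 14.2 in non-meristematic tissue. Every root value was above its own array's background, but the 25.7 of array 3 was below the backgrounds of both non-meristematic arrays. The bound on its difference was therefore only 1.37-fold, against a fitted log2 difference of 1.67 ± 0.52 (SE). Without root meristem array 1 or 2, or without either non-meristematic array, it no longer met the threshold.

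The 3 root meristem arrays differed from one another in these genes. Array 3 was the lowest root array for all 6, as it was for 37.6% of the 26341 probe sets above background on all 3. PM16, PM29 and PM30 had their highest value on array 1, and PGMPM19, LEA5 and SLE2 on array 2. The median ratio of array 1 to array 3 was 2.94 over the 6 genes. Over the 26864 probe sets above background on both arrays the median log2 difference was 0.01, and 5.89% were at least 2-fold higher on array 1, against 0.60% at least 2-fold higher on array 3. Of the 6 genes 4 were at least 2-fold higher on array 1, and SLE2 just missed at 1.98-fold.

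Set against single probe sets, the gap of PM29 was larger than in 99.7%, that of PM16 (marked probe set) than in 99.4%, that of LEA5 than in 98.4% and that of PM30 than in 97.7% of those 26864. SLE2 exceeded 93.9% and PGMPM19 63.4%. From array 2 to array 3, LEA5 dropped the most of the 6, by 3.60-fold, more than in 99.8% of 26986 probe sets. SLE2 was 2.32-fold lower on array 3 than on array 2, more than in 98.0% of them, and PM16 2.19-fold, more than in 97.4%. These are ratios between single arrays and carry no test.

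**Figure D2:**
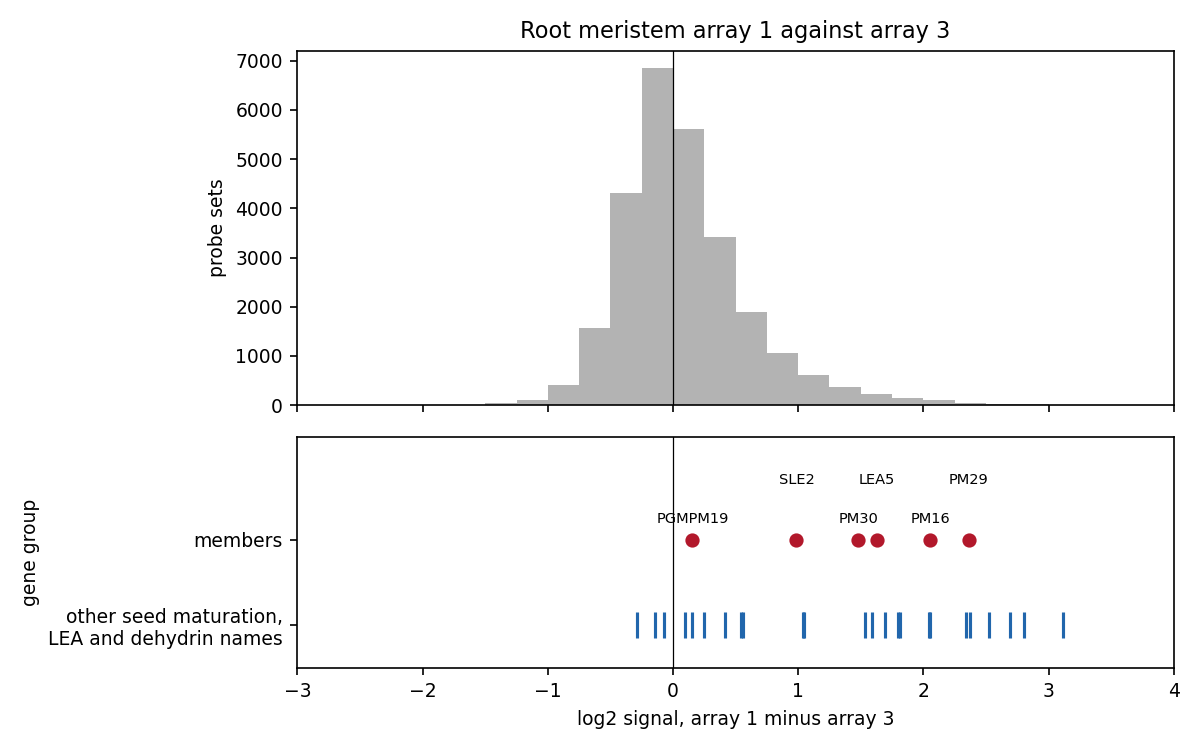
Log2 signal on root meristem array 1 minus array 3. The upper panel counts all 26864 probe sets above background on both arrays, and the lower panel marks the 6 members by name and 24 other genes with seed maturation, LEA or dehydrin names. The bulk of probe sets centres on a log2 value of 0.01, and 4 of the 6 members and 15 of the 24 other genes lie at 1 or more.

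Other measures of the root arrays did not all move alike. The 2% trimmed mean signal was 273.6, 275.4 and 276.8 on arrays 1, 2 and 3, and the median signal 87.1, 87.4 and 77.8, lowest on array 3. The summed signal of the 12 leaf and photosynthesis markers was 5444, 5496 and 5753, against 67076 and 56618 in non-meristematic tissue. Most of the root sums came from PSAD, and without it they were 782.5, 809 and 756.6. The median over the 12 markers was 38.6, 35.9 and 22.4 on the root arrays. Of these markers 8, 10 and 7 were above background on the root arrays, against all 12 in non-meristematic tissue, and the Rubisco activase gene RCAALPHA had 12.8, 7.7 and 7.5, below background on each root array. The 3 root tip markers summed to 6202, 6350 and 5560, against 1375 and 1054. Among them, the histone gene H4 had 2711, 2331 and 1272, so that it was also lowest on array 3, while PIN2A and PCNA (1752, 1618 and 2304) were not. By its name the H4 probe set belongs to the same design cluster as probe sets of VSPA and PR-10, which makes its assignment uncertain. The part of any of these in the member values was not tested.

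The other genes named as seed maturation proteins were mostly higher in root meristem too. Of 25 such genes, 22 were tested. Root meristem was higher for 13 and lower for 0, while 9 missed the threshold. The median log2 difference was 2.90. The background share was 18.6% higher and 21% lower among all named genes. Earlier results of these data had already shown this direction, and the list is no independent evidence of it. Most of the 13, including CP3, PGMPM18, MP2 and PGMPM10, lay below background on both non-meristematic arrays. They passed the filter on low signals, above background on at least 2 arrays, only through the root arrays. A gene seen only in root tips had 3 arrays on which to pass it, against 2 for the reverse. The count is therefore only described. PM9, a LEA-type seed protein, had 4647, 2034 and 1119 on the root arrays against 52.5 and 23.7 in non-meristematic tissue (a fitted 62.2-fold with 1 of 2 non-meristematic arrays above background, log2 5.96 ± 0.62 SE, limma adjusted p = 0.000724). CP3, a cysteine protease gene also listed as GmPM33, had 618, 545 and 421 against 17.9 and 1.7, at least 16.7-fold higher. PGMPM18 had 889, 276 and 154 against 8.1 and 13.8, at least 10.8-fold higher. MP2, also called PM2, was at least 4.10-fold higher, with 241, 125 and 69.4 against 5.9 and 1.9. PGMPM10 passed with 51.2, 41.8 and 13.3 against 1.0 and 1.1, but its value on root array 3 was below background and no bound above 1-fold could be given.

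The brightest of the list that did not pass were PM37, PM23 and PM1. PM37 had 6385, 5609 and 5761 on the root arrays against 3481 and 3186 in non-meristematic tissue, a log2 difference of 0.83 ± 0.13 (SE), under the minimum size. PM23 had 515, 519 and 482 against 1275 and 730, with the root arrays below both others (log2 -0.93 ± 0.27 SE, limma adjusted p = 0.0311), also under that size. PM1, a LEA-type seed protein, had 2068, 525 and 239 against 209 and 15.8, a log2 difference of 3.47 ± 1.24 (SE) that did not pass (limma adjusted p = 0.0643). Its root arrays spanned 8.67-fold and its non-meristematic arrays also lay far apart.

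With the 5 genes of LEA and dehydrin names, none of which passed, the other seed maturation and LEA names made 30 genes, of which 27 were tested and 13 were higher. That count was 8 of 24 without root meristem array 1 and also 8 of 24 without array 2. No gene of these was lower, except for 3 without non-meristematic array 2 and 1 after quantile normalization. MAT1, listed as a dehydrin, a class of LEA protein linked to drying and cold, had 250.5, 178 and 83.2 against 112 and 41.4, so that the groups overlapped. LEA-2 had 464, 443 and 348 against 891 and 610, lower in root meristem on every array but under the minimum size (log2 -0.83 ± 0.25 SE). COR1 and RAB2, the latter the name of a small GTPase, matched by symbol alone and had log2 differences of 0.03 ± 0.24 and 0.05 ± 0.18 (SE). COR2 had the largest difference of the 5, toward non-meristematic tissue, with 130.5, 216 and 159.2 against 1691.5 and 179.2. Its groups overlapped, and it did not pass (log2 -1.74 ± 0.85 SE).

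The spread over the root arrays recurred in that list. Among the 19 other seed maturation genes above background on root arrays 1 and 3, 14 were at least 2-fold higher on array 1 and 0 on array 3. Among all named genes the share was 8.52%. Array 3 was the lowest root array in 16 of the 19, and 15 had array 1 highest and array 3 lowest. Of 5010 named genes above background on all root arrays, array 3 was lowest in 39.5% and the latter order held in 25.2%. PM9 had a ratio of array 1 to array 3 of 4.15 and PGMPM18 of 5.76, while PM37 and PM23 had 1.11 and 1.07.

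**Figure D3:**
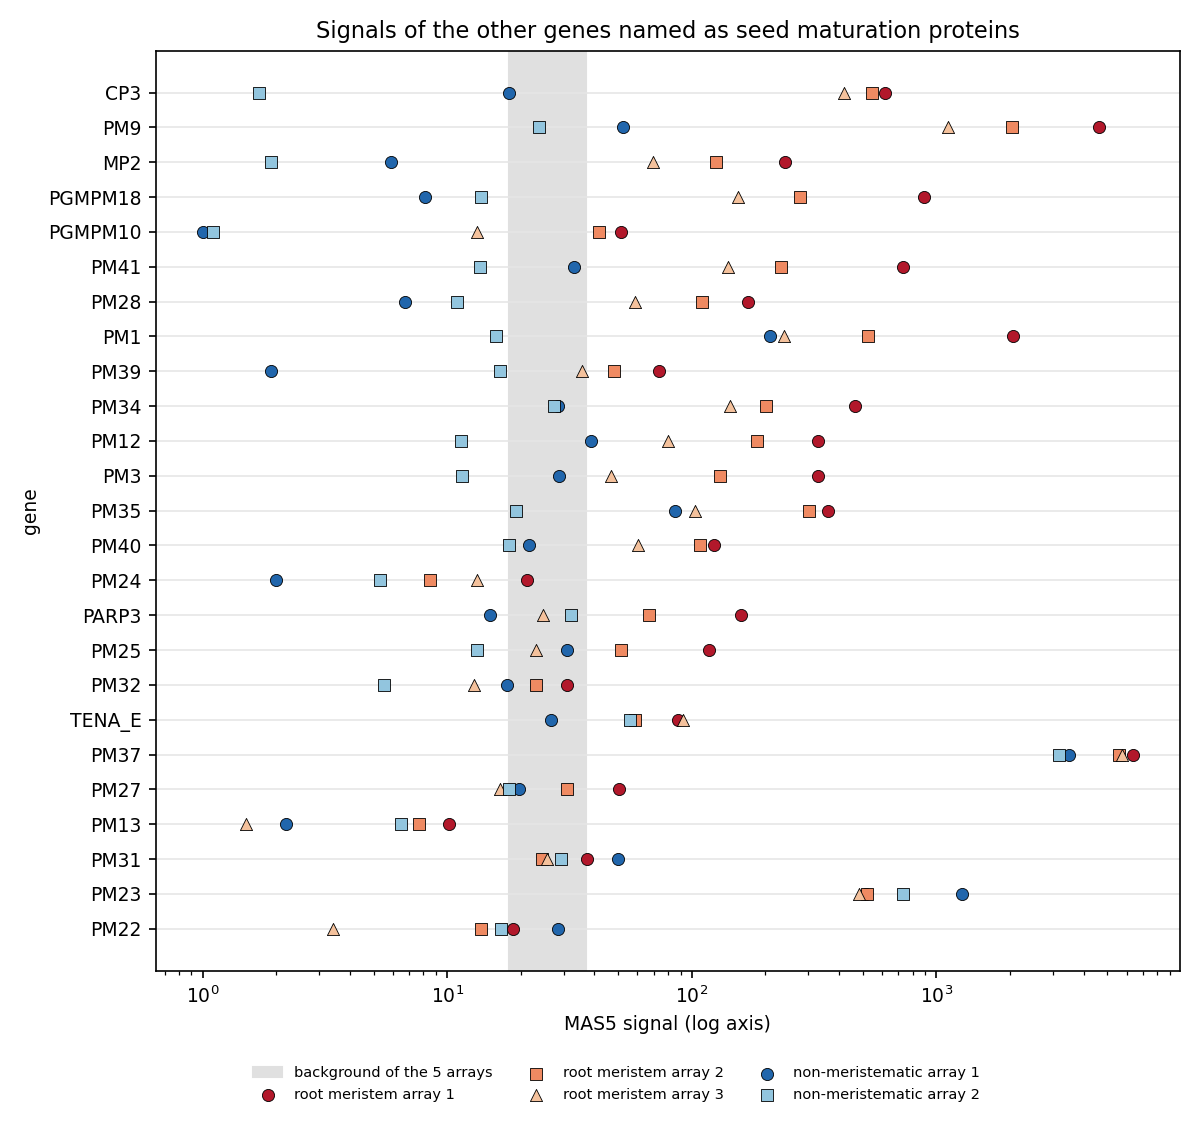
MAS5 signal (log axis) of the 25 other genes named as seed maturation proteins on each of the 5 arrays, 1 row per gene, ordered by log2 difference, with the range of array backgrounds shaded. In most upper rows the root meristem points spread from array 3 (lowest) to array 1 (highest) and lie to the right of the non-meristematic points, while PM23 lies the other way round.

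Signals of seed storage globulins, the main protein reserve of soybean seeds, were at or near background in root meristem. The 7 storage globulin genes GY1, GY2, GY3, GY5, GY7, CG-1 and CG-BETA-1 did not pass the filter on low signals. Their highest root meristem signal was 21.9, for GY3 on array 3, the one root value above background among them. GY1 had 18.5, 12.1 and 1.1 on the root arrays against 1.7 and 1.2 in non-meristematic tissue. GY2 had 20.2, 10.9 and 12.2 against 60.4 and 10.5, and its 60.4 on non-meristematic array 1 was above that array's background of 37. Of the 14 genes in the storage list only 3 were tested, all of them higher. These were the Kunitz trypsin inhibitor names KTI-2 (10214, 10368 and 9688 against 2189 and 2041) and KTI-3 (7522, 8700 and 8161 against 1723 and 1137), and LOC100787186 (sbp), with 113.2, 99.4 and 80.9 against 3.0 and 8.3. LOC100787186 lay below background on both non-meristematic arrays and passed the filter only through the root arrays. The names KTI3, a different gene from KTI-3, and KTI1 were not tested and lay below background on every array. KTI3 had 5.6, 3.5 and 2.0 on the root arrays against 29.1 and 13.9. KTI1 had 1.1, 4.4 and 7.4 against 13.7 and 9.9. KTI-2 and KTI-3 were close on all 3 root arrays, with ratios of array 1 to array 3 of 1.05 and 0.92. The summed signal of the 14 genes was 17942, 19243 and 18014 on the root arrays against 4105 and 3278 in non-meristematic tissue, nearly all of it from KTI-2 and KTI-3.

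Regulators and partners of seed drying were few on the array. BZIP1, also called AREB1, a transcription factor of abscisic acid response, had 124, 51.3 and 42.7 on the root arrays, within a range that overlapped the non-meristematic arrays, and did not pass (log2 0.02 ± 0.52 SE). LEC1-A, a regulator of embryo development, was below background on all 5 arrays, with a highest signal of 16.3. The oil body protein name P89 did not pass (log2 -0.08 ± 0.60 SE).

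The heat shock and raffinose names covered heat shock proteins, heat shock factors and a gene for the making of protective sugars. Of the 17 tested, 4 were higher, 0 lower and 13 did not pass, beside 18.6% higher and 21% lower among all named genes. The 4 were heat shock factor genes, HSF-26 (2.70-fold), HSF-15 (2.36-fold), LOC100782841 (HSF, 2.32-fold) and HSF-35 (2.27-fold). HSP90-1, a chaperone gene, had 6507, 6092 and 6735 against 3866 and 2758, just under the minimum size (log2 0.98 ± 0.17 SE). Neither HSP90A1 (log2 0.05 ± 0.57 SE) nor HSF-01 (log2 -0.74 ± 0.55 SE) passed. HSF-01 had 854, 409 and 207 on the root arrays, a ratio of array 1 to array 3 of 4.14. Over the 16 of these genes above background on both arrays the median ratio was 1.18, and 4 were at least 2-fold higher on array 1, against 8.52% of all named genes.

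Probe sets of other genes with a symbol other than a LOC number, above background on all root arrays, numbered 1242. They were ranked by Pearson r of log2 signal with the mean profile of the 6 genes over the 5 arrays. Values below background were set to background. PDR12 came first (r = 0.998), with 334.5, 269 and 168 on the root arrays against 41.2 and 20.6 in non-meristematic tissue. The seed maturation gene PM9 had an r of 0.996, as did SRA2, UR2 (a uricase gene) and CHIA1 (a chitinase gene). PR-10, a pathogenesis-related protein gene, and GSTU42, a glutathione transferase gene, had an r of 0.995, and MYB12A, a MYB transcription factor gene, 0.994. GSTU42 had 1998, 951 and 415 on root arrays 1, 2 and 3, with the same order of root arrays as PM16, PM29 and PM30. SRA2 moved little in size, with 708, 716 and 585 against 375 and 368. The 5 arrays fall into 2 tissues, so that r mostly measures the difference between tissues. The members' own r with that profile was 0.982 to 0.998, except for SLE2 at 0.627.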

How the data were processed

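The authors deposited MAS5 signal intensities on a linear scale from 1 Affymetrix soybean array per sample, per the submitters' processing notes, which name MAS5. No MAS5 version, scaling target or detection call is given in the sources used here. Per the labels, 6 µg of total RNA went into each biotinylated cRNA. After a floor of 0.1, signals were converted to log2, without further scaling. Probe sets above the array's 25th percentile on at least 2 arrays (30941 of 37593) were fitted with limma 3.58.1 in R 4.3.3 (eBayes with an intensity trend), with Benjamini-Hochberg adjustment over all of them. To pass, a probe set needed an adjusted p below 0.05 and a log2 difference of 1 or more in size. The procedure was tested on simulated data. The number of arrays limits the precision.

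Gene names came from the platform table, updated by Entrez number through RefSeq names of Glycine_max_v4.0 (8652 of 8677 single-gene probe sets matched). Each gene was represented by its brightest tested probe set (mean of log2 signals). Lists were filled by symbol or synonym pattern. From each, up to 5 genes with the largest difference among those that passed and up to 3 of the brightest that did not pass were to be named, together with the 8 genes closest in profile. MAT1, COR2, HSF and storage globulin values beyond this, and H4 and GSTU42 details, were chosen after their values were seen. The members and lists were chosen with earlier results of these data known. Alternatives changed the scaling, floor, filter, variance model or probe sets, left out a replicate, or added a replicate block.

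Replicates 1 and 2 share numbers between groups. The difference between replicates 1 and 2 in root meristem correlated with that in non-meristematic tissue by r = 0.01 over 30941 probe sets, and the numbers were not taken to pair the samples.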

Additional observations from a re-analysis of the deposited data

How the results depend on the processing

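The number of probe sets that passed lay between 7589 and 12357 over 14 alternatives, against 10060. Over all probe sets the median difference (log2) was 0.07, but 0.30 after quantile normalization and 0.43 after median centring. The median log2 difference of the 6 members (7.33) stayed positive in all 20 alternatives. It was 6.21 after quantile normalization, 5.28 with log2(signal + 16), 5.80 without marked probe sets and 3.67 to 7.19 with 1 replicate left out. The probe sets of the first choice were also held fixed, an alternative chosen after seeing the data. The median was then 7.79 after quantile normalization and 6.97 to 7.89 without a replicate. The lower values after quantile normalization and without a root meristem replicate thus came with another choice of probe set. No such alternative was run for log2(signal + 16). The gap between root arrays 1 and 3 was 1.39 to 1.63 over 8 alternatives, against 1.55. Of the other seed maturation and LEA names, 8 to 15 were higher with 1 replicate left out and 17 after median centring, against 13. None was lower except 3 without non-meristematic replicate 2 and 1 after quantile normalization. The cause was not tested. Of 114 values of single member probe sets under alternatives, 0 changed sign and 10 moved by more than the residual spread, 7 of them with log2(signal + 16). The marked PM30 probe set had 12.8 and 8.19 without non-meristematic replicates 1 and 2, against 10.5. With the replicate block, 7589 probe sets, 15 of the other seed maturation and LEA names and a median of 7.89 over the members were found, and SLE2 did not pass. Signals near background limit what can be said of SLE2 and of the dim non-meristematic values.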

Other observations

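Among the 771 genes with a symbol other than a LOC number, the 6 members left out, and with signal above background on all root meristem arrays, the widest ratio of array 1 to array 3 was that of PM1, 8.67. Of the 12 widest, 4 carry seed maturation names, which are PM1, PM3 (6.98), PARP3, listed also as PM38 (6.48), and PGMPM18 (5.76). The 771 genes include the 19 other seed maturation genes that were above background on all root arrays by their brightest tested probe set. The 12 were picked by this ratio, so the count is only described. PR-10 had 429, 129 and 53.8 on the root arrays, on a probe set of the same design cluster as those of H4 and VSPA. Another PR-10 probe set, the one in the ranking by profile, had 1163, 1175 and 652. SALI5-4A had 1299, 754 and 165, with 5339 and 3991 in non-meristematic tissue. OLPa had 246, 117 and 33.3, NAC27, a NAC transcription factor gene, 531, 283 and 76.3, and PRP2, a proline-rich protein gene, 5173, 2172 and 864. The other 3 were SAN1A, with a ratio of 7.88, MYB184 with 5.92 and PGIP with 5.75. These genes were chosen after their values were seen, and no test was made.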
